A study of Mus musculus with 6 samples.

Results

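Interferon-stimulated genes are the antiviral and signalling genes that a cell switches on when it senses interferon. The set described here has 42 such mouse genes, chosen by symbol: 8 genes of the oligoadenylate synthetase (Oas) family, 3 Ifit genes, 6 GTPases, 4 nucleic acid sensors, 3 transcription factors, 3 genes of the ISG15 pathway, 2 chemokines and 13 other effectors. The choice was made with earlier results of these data known. A probe named here was found for 38 of the 42, out of 20866 named genes on the array, and each gene was represented by its brightest probe. Type I interferon signals through a cell-surface receptor and Janus kinases to a transcription factor complex that includes STAT2 and IRF9 and binds the interferon-stimulated response element (ISRE) in the promoters of these genes. Interferon-gamma acts through a different element, and chemokine genes such as Cxcl10 respond to NF-kB factors as well. In the thymus, a low level of interferon signalling is known in the absence of infection, above all in the medulla.

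Expression was measured on 6 one-colour Agilent arrays of C57BL/6 mice, in a study of RelA and the exit of regulatory T cells from the thymus. RelA is a DNA-binding subunit of NF-kB. Each of 2 genotypes was hybridised once for each of 3 sorted thymic populations: CD4+CD25hi thymocytes, a sort enriched in regulatory T cells, thymic epithelial cells sorted as CD45-EpCAM+, and CD45+EpCAM- cells, which the labels call thymic stroma although they carry the haematopoietic marker CD45. The genotypes were TNFalpha-KO, labelled TKO and called the TNF knockout below, and TNFalpha and RelA double KO, labelled TAKO and called the double knockout; both lack TNF, so that no group had wild-type TNF. The mice were 1.5 to 2 weeks old. RNA was pooled from 5 mice per genotype for the thymocytes and from 10 thymi for the other populations, so that an array stands for a pool and not for a mouse. With 1 array per group, a difference between the genotypes within a population has no replicate check and no test. In sorted pools, fewer cells of a type and less RNA per cell cannot be told apart.

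Rela itself, the targeted gene, was lower on every double knockout array. The Rela probe read 4.52 and 2.66 in the thymocytes (TNF knockout first, here and throughout), 3.84 and 1.81 in the epithelial cells, and 4.04 and 3.30 in the CD45+EpCAM- cells, as log2 signal relative to the array's 75th percentile, the scale of all levels below. Where this probe lies relative to the deleted part of Rela is not known here, and the same holds for Tnf, whose probe read -0.64 and -0.78 in the thymocytes, -1.49 and -2.71 (not well above background) in the epithelial cells, and -0.57 and -0.64 in the CD45+EpCAM- cells. Foxp3, which defines regulatory T cells, read 4.47 and 4.79 in the thymocytes and was not well above background in the epithelial cells. Epcam read 2.12 and 1.49 in the epithelial cells, where Cd3e of the T-cell receptor complex still read 3.89 and 4.87, so that T-cell transcripts were found in all 3 sorts. In the CD45+EpCAM- cells the summed linear signal of T-lineage markers was 248 and 239, against 225 and 201 in the thymocytes. Proliferation markers summed to 145 and 119 there, macrophage markers to 9.32 and 15.8 and dendritic cell markers to 5.14 and 3.50. Levels in this sort are thus those of a mixture with strong T-lineage signal. Between 47.2 and 66.2% of probes were well above background, with the lowest share on the double knockout epithelial array, which was also the dimmest, with a 75th percentile signal of 108 against 272 to 675 on the other arrays. Each population lay on a slide of its own, which means that effects of slide and of population cannot be told apart, whereas both genotypes of a population shared a slide.

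Promoter sequence describes the set without use of the arrays. RefSeq promoter windows of assembly GRCm38.p6, from 250 bases before to 50 after a start site, were at hand for 33 of the 42 genes. The ISRE letters, GAAA followed by any 2 bases and GAAA again, stood in the window of 21 of these 33 genes (63.6%), on either strand, against 3.99% of all 27025 genes. All 4 GTPase genes with a window carried the letters (Igtp, Irgm1, Gbp2 and Gbp3), as did 4 of 6 Oas genes, 2 of 3 Ifit genes and 6 of 11 other effectors. The windows without them were those of Oasl1, Oasl2, Ifit2, Irf7, Irf9, Herc6, Cxcl9, Cmpk2, Ifi44, Ifi35, Xaf1 and Lgals3bp. The letters TTCNNNGAA of the interferon-gamma element (GAS) were found in 6 of 33 genes (18.2%, against 9.55%), and overlapped the ISRE letters in 1 window. NF-kB sites, searched by the usual kB consensus on both strands, were matched in 7 of 33 (21.2%, against 9.55%), overlapping the GAS letters in 2 windows. Matches are descriptions of letters in these windows only.

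Several stretches before the start site are shown because they carry the ISRE letters, in capitals, in genes whose genotype differences ranged from large to near none. They read 5′ to 3′ on the strand of the gene. Oas1a lies at chr5:120907526-120907575 (minus strand), Oas1c at chr5:120812583-120812658 (minus), Apol9b at chr15:77729005-77729071 (plus), Isg15 at chr4:156200845-156200926 (minus), Ifit1 at chr19:34640755-34640843 (plus) and Gbp2 at chr3:142620574-142620643 (plus).
Oas1a: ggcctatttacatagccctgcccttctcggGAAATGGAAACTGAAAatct
Oas1c: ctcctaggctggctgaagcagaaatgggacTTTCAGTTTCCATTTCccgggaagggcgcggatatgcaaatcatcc
Apol9b: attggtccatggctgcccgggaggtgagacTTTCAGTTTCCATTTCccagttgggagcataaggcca
Isg15: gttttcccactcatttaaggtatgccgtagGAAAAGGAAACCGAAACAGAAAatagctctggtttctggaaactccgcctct
Ifit1: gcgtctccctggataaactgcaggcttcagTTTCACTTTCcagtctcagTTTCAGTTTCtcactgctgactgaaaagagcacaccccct
Gbp2: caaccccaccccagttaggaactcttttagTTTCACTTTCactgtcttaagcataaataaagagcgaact

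Oas1a, Oas1c and Apol9b held the same run of 16 letters, made of 2 overlapping ISRE copies, with the strand of Oas1a opposite to the others. This run was present in the windows of 5 of 27025 genes, and all 5 were members: Oas1a, Oas1c, Oas1g, Apol9a and Apol9b. It was looked up after the sequences had been read. The 16 letters did not go with one expression pattern. Oas1a and Apol9b were lower in the double knockout in all 3 populations, Oas1c differed by -0.25, -0.40 (0.02 with normexp) and 0.18, and Oas1g was not well above background on any array.

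Across the set, members were mostly lower in the double knockout thymocytes and CD45+EpCAM- cells, and of mixed direction in the epithelial cells. The shares below are descriptive, because the members were chosen with earlier results of these data known. In the thymocytes, 36 members could be measured and 33 were lower in the double knockout, against 52.2% of 12933 genes. Of these, 7 were at least 2-fold lower, against 1.28% of genes, and none was at least 2-fold higher (1.68% of genes). The median of the members was -0.57, and that of all genes -0.02. In the CD45+EpCAM- cells, 34 of 37 members were lower (51.2% of 14586 genes), 12 of them at least 2-fold (2.08%), none was at least 2-fold higher (1.82%), and the median was -0.53 against -0.01. In the epithelial cells, 16 of 37 members were lower (47% of 13208 genes), 5 at least 2-fold (9.3%) and 0 reached 2-fold in the upward direction (5.1%); the median was 0.06 against 0.03. The epithelial share of 2-fold lower members was thus near that of all genes. That median was -0.18 after a normexp background correction and 0.00 after median centring, and 19 of 37 epithelial members kept their sign over the 7 alternative settings, against 36 of 36 in the thymocytes and 36 of 37 in the CD45+EpCAM- cells. Different probes of the same gene differed in their genotype difference with an SD of 0.22 in the thymocytes, 0.32 in the epithelial cells and 0.21 in the CD45+EpCAM- cells. These probes share the same arrays, so this SD leaves out error between pools and between hybridisations.

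**Figure D1:**
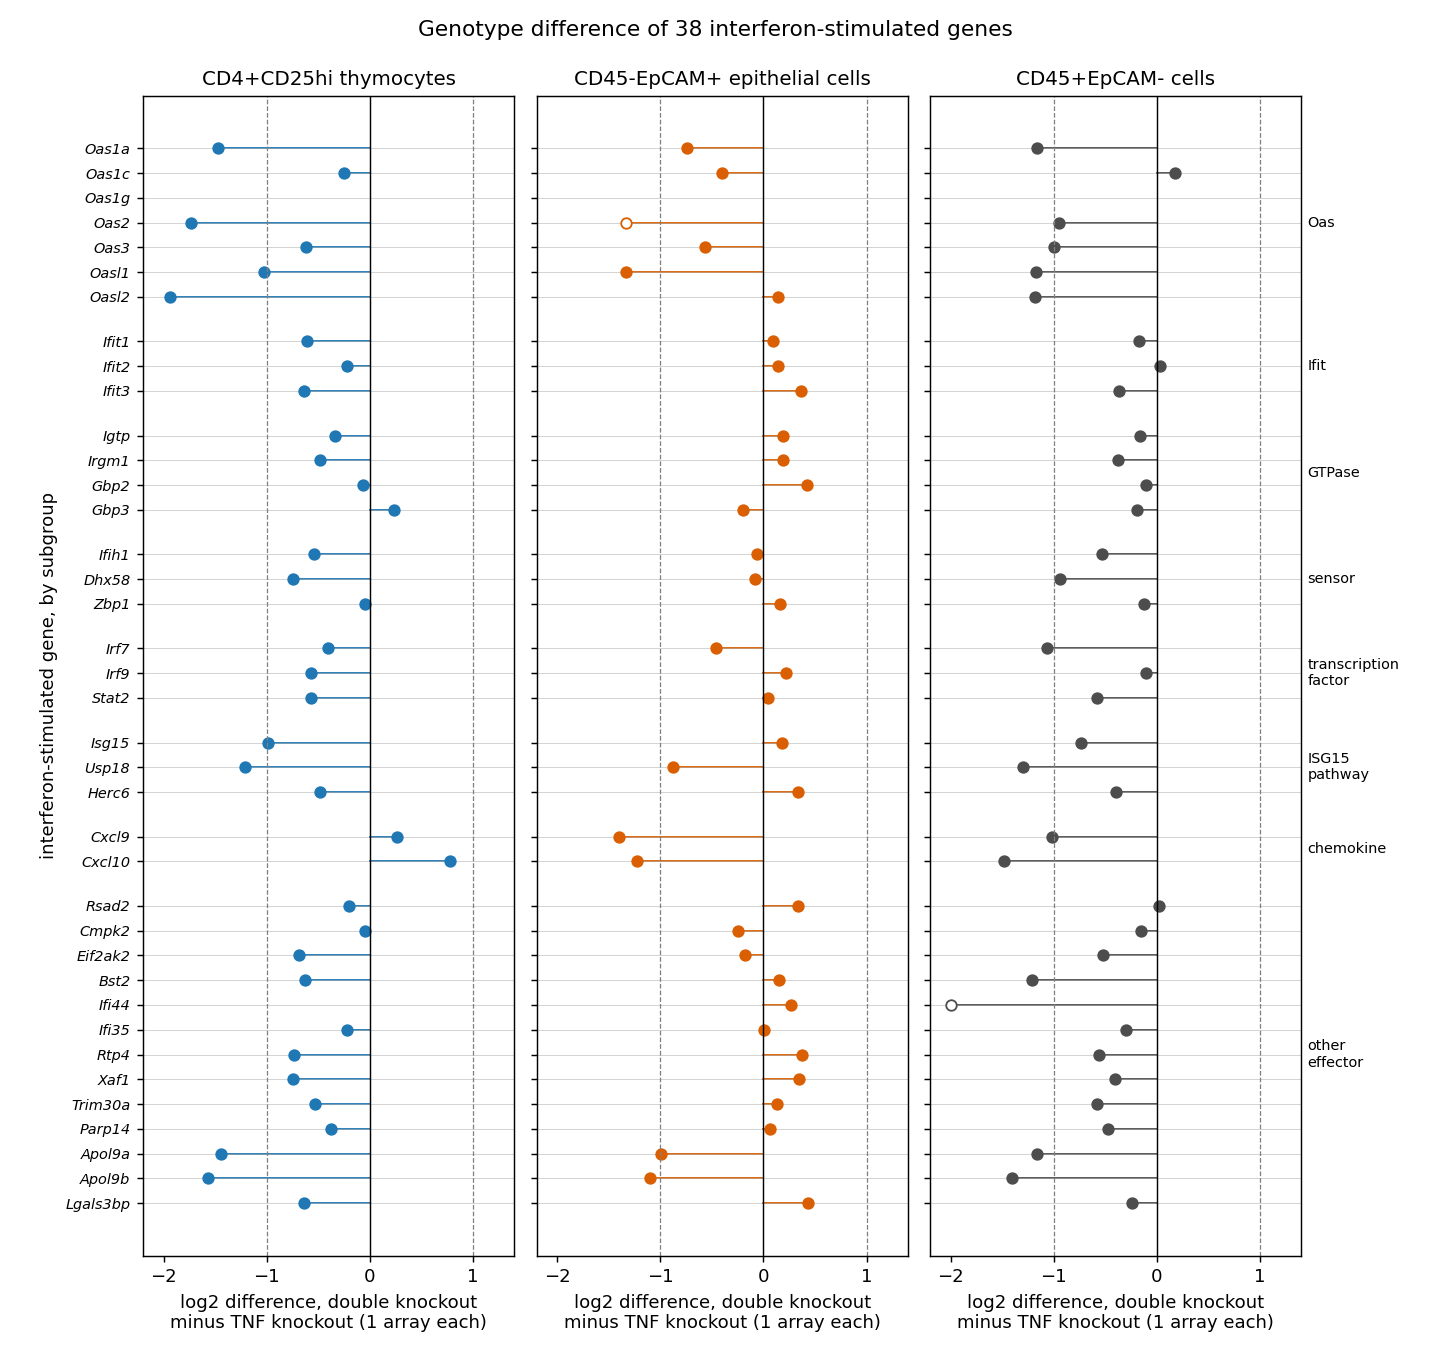
Log2 difference, double knockout minus TNF knockout, of each member in the 3 populations, 1 array per genotype, grouped by subgroup; open circles are bounds, where the double knockout signal was near background, dashed lines mark 2-fold, and a gene without a point was dim on both arrays. In the thymocytes 33 of 36 members and in the CD45+EpCAM- cells 34 of 37 lie left of 0, in the epithelial cells 16 of 37.

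The Oas family, enzymes and enzyme-like proteins of the pathway that degrades viral RNA, held 4 of the 7 members that were 2-fold lower in the double knockout thymocytes. Its median was -1.25 in the thymocytes, -0.65 in the epithelial cells and -1.08 in the CD45+EpCAM- cells; with normexp these were -0.93, -0.20 and -0.92. Oas1a, a synthetase that activates RNase L, read 0.07 and -1.40 in the thymocytes, 4.06 and 3.32 in the epithelial cells, and 0.98 and -0.18 in the CD45+EpCAM- cells. The double knockout was the lower array in each population, by -1.47, -0.74 and -1.16, and the epithelial arrays were both above the other 4. A second Oas1a probe gave -0.84 and -1.20 in the epithelial and CD45+EpCAM- cells and a bound of -1.81 in the thymocytes.

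Oas2, a larger synthetase, read 0.12 and -1.62 in the thymocytes, -0.94 and -2.27 in the epithelial cells, and 1.65 and 0.69 in the CD45+EpCAM- cells. The difference was -1.73 in the thymocytes and -0.95 in the CD45+EpCAM- cells. The double knockout epithelial array was not well above background, so that Oas2 was at least 2.51-fold lower there, a bound that shrank to -0.12 on the log2 scale with normexp. Oas3, the largest enzyme of the family, differed by -0.62, -0.57 and -1.0, and its epithelial difference turned to 0.29 with normexp.

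Oasl1, a family member without enzyme activity that acts on Irf7 translation, read 0.98 and -0.05 in the thymocytes, 2.32 and 0.99 in the epithelial cells, and 1.14 and -0.03 in the CD45+EpCAM- cells. It was the only Oas gene with a measured difference past 2-fold in all 3 populations, at -1.03, -1.33 and -1.17, although that of the thymocytes was under 2-fold in 2 of the 8 settings. Its promoter window had 2 overlapping kB matches and no ISRE letters. Oasl2, a related gene, read 1.27 and -0.68 in the thymocytes, 4.38 and 4.52 in the epithelial cells, and 0.55 and -0.64 in the CD45+EpCAM- cells. At -1.94 it had the largest difference of all members in the thymocytes, and it differed by -1.18 in the CD45+EpCAM- cells but by 0.14 in the epithelial cells, where normexp gave -0.28. Oas1c, a synthetase-related gene, read 1.57 and 1.33, then -0.68 and -1.08, then -0.56 and -0.38, with neither direction shared by the 3 populations. Oas1a, Oas1c and Oas1g are paralogues, and how far their probes tell them apart was not tested, but the Oas1g probe was dim on the epithelial arrays where Oas1a was brightest.

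The ISG15 pathway attaches and removes ISG15, a ubiquitin-like protein that is among the strongest interferon targets. Isg15 read 4.75 and 3.76 in the thymocytes, 5.21 and 5.39 in the epithelial cells, and 4.26 and 3.52 in the CD45+EpCAM- cells. It was lower by -0.99 and -0.74 in the thymocytes and CD45+EpCAM- cells and differed by 0.18 in the epithelial cells, where normexp gave -0.30; a second Isg15 probe gave -0.95, 0.10 and -0.83. Usp18, which removes ISG15 and dampens the interferon receptor, read 2.23 and 1.02, then 3.57 and 2.68, then 1.39 and 0.09. Unlike Isg15 it was lower on every double knockout array, by -1.21, -0.88 and -1.30. Herc6, the main mouse ligase for ISG15, differed by -0.48, 0.34 and -0.40.

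**Figure D2:**
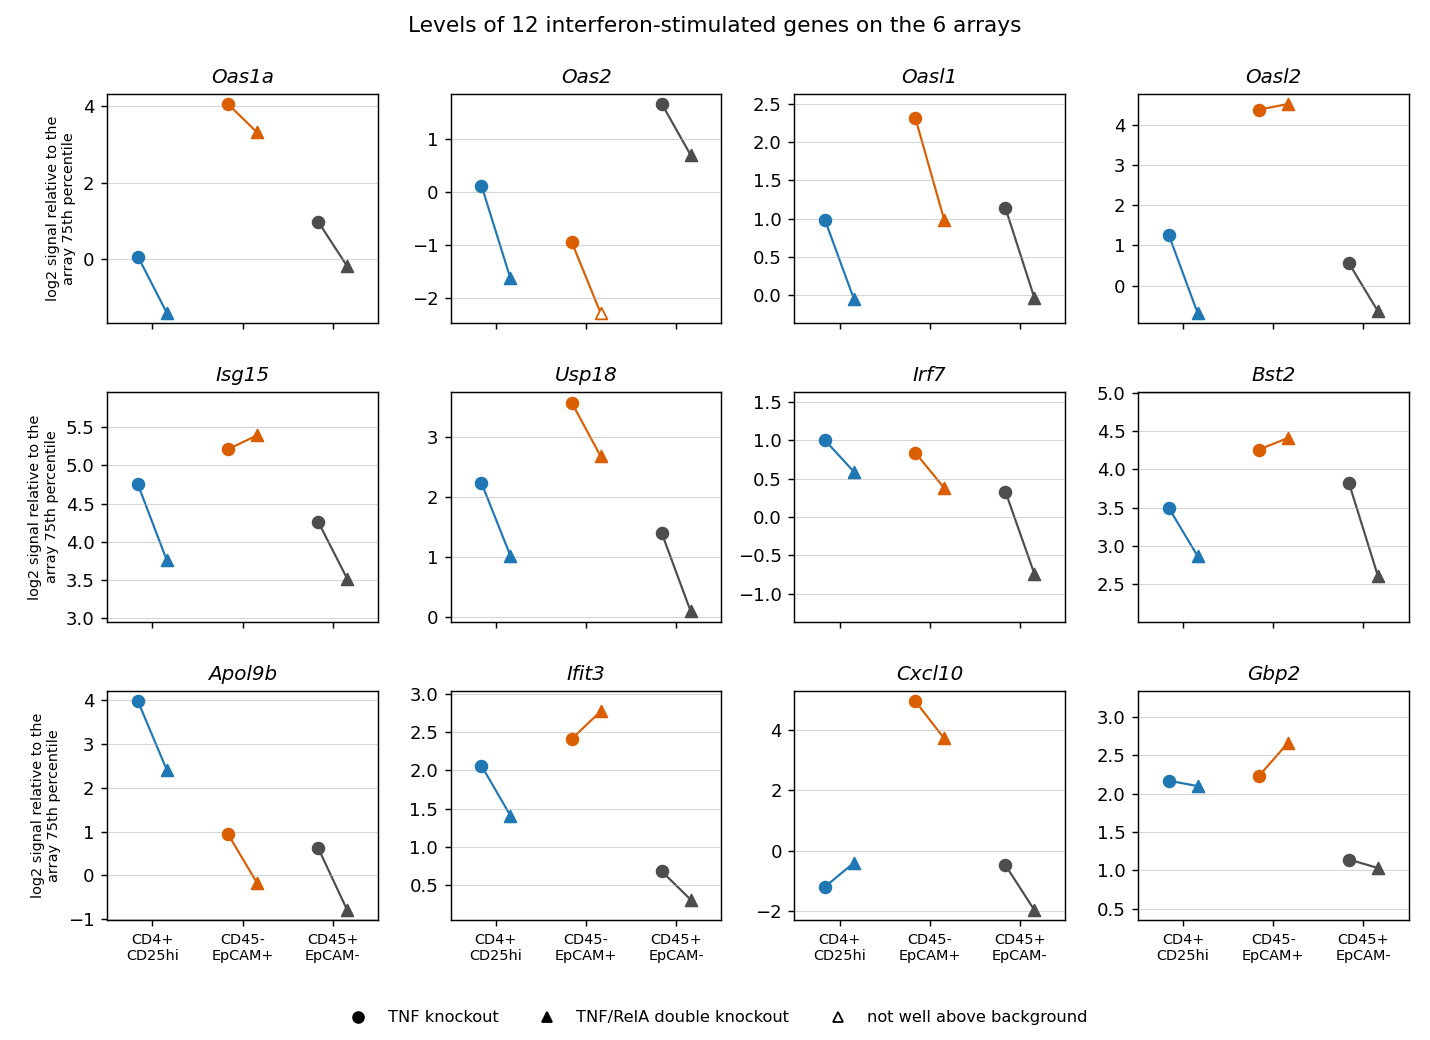
Levels of 12 members on each array, as log2 signal relative to the array's 75th percentile; circles are the TNF knockout, triangles the double knockout, and lines join the 2 arrays of a population. Oas1a, Oas2, Oasl1, Usp18, Irf7 and Apol9b slope down in all 3 populations, while Oasl2, Isg15, Bst2 and Ifit3 slope down in the thymocytes and CD45+EpCAM- cells and not in the epithelial cells.

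The Ifit genes encode proteins that bind foreign RNA. None of the 3 reached 2-fold in any population. Ifit1 read 0.77 and 0.17, then 0.55 and 0.65, then -0.57 and -0.73, and Ifit3 read 2.06 and 1.41, then 2.41 and 2.77, then 0.68 and 0.31. Both were lower in the double knockout thymocytes, by -0.61 and -0.64, and less so in the CD45+EpCAM- cells, by -0.17 and -0.37; the epithelial differences of 0.09 and 0.36 turned to -0.02 and -0.09 with normexp. Ifit2 differed by -0.22, 0.14 and 0.03. The Ifit genes are paralogues, and how far their probes tell them apart was not tested.

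GTPases of the interferon response attack the vacuoles of intracellular pathogens, and respond strongly to interferon-gamma. The 4 with a probe had median differences of -0.20, 0.19 and -0.18, none of them reached 2-fold in any population, and the epithelial median turned to -0.22 with normexp. Gbp2, a guanylate-binding protein, read 2.17 and 2.10, then 2.23 and 2.66, then 1.14 and 1.03. Its thymocyte and CD45+EpCAM- differences of -0.07 and -0.11 were within the SD between probes, although its promoter holds the ISRE letters. The other three differed by -0.34, 0.19 and -0.16 (Igtp), by -0.48, 0.19 and -0.38 (Irgm1), and by 0.23, -0.20 and -0.19 (Gbp3). The positive epithelial values of Igtp and Irgm1 turned to -0.21 and -0.23 with normexp.

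Among the sensors, Dhx58 (LGP2) and Ifih1 (MDA5), which recognise double-stranded RNA, had similar differences. Dhx58 read 0.78 and 0.03, then 0.31 and 0.23, then -0.25 and -1.18, differences of -0.75, -0.08 and -0.94. Ifih1 differed by -0.54, -0.06 and -0.53. Zbp1, a sensor of Z-form nucleic acid, differed by -0.05, 0.16 and -0.13, but its second probe gave -0.63, -0.54 and -0.10, so that its probes disagreed.

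The transcription factors had medians of -0.57, 0.04 (-0.29 with normexp) and -0.58. Irf7, the factor that amplifies type I interferon production, read 1.0 and 0.59, then 0.84 and 0.38, then 0.33 and -0.74. It was lower on each double knockout array, by -0.41, -0.46 and -1.07, with the CD45+EpCAM- difference the only one past 2-fold. Stat2 and Irf9, partners in the ISRE-binding complex, differed by -0.57 each in the thymocytes. In the CD45+EpCAM- cells Stat2 differed by -0.58 and Irf9 by -0.11, and in the epithelial cells they differed by 0.04 and 0.22, which normexp turned to -0.29 and -0.11.

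The chemokines Cxcl9 and Cxcl10, which draw CXCR3-bearing T cells, went against the set's direction in the thymocytes and with it in the CD45+EpCAM- cells. Cxcl10 read -1.19 and -0.40 in the thymocytes, 4.95 and 3.72 in the epithelial cells, and -0.48 and -1.96 in the CD45+EpCAM- cells. It was higher by 0.78 in the double knockout thymocytes and lower by -1.23 and -1.48 in the other populations, signs that held in all 8 settings. Cxcl9 read -3.72 and -3.46, then 1.04 and -0.37, then -2.92 and -3.95, differences of 0.26, -1.40 and -1.02. A second Cxcl9 probe gave -1.71 and -3.0 in the epithelial and CD45+EpCAM- cells and was dim in the thymocytes, where the first was faint as well. The window of Cxcl10 before its start, shown because it holds both the ISRE letters (the first capital run) and kB matches (the other runs, the last of which holds 2 overlapping matches), lies at chr5:92348953-92349132 on the minus strand.
Cxcl10: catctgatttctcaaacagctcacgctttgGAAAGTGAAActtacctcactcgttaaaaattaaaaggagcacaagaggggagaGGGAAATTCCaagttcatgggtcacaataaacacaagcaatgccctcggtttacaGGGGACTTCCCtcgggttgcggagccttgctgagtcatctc

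Other effectors followed the set, with the apolipoprotein L genes in front. Apol9b read 3.98 and 2.41 in the thymocytes, 0.94 and -0.17 in the epithelial cells, and 0.62 and -0.79 in the CD45+EpCAM- cells. It was lower in each population, by -1.57, -1.10 and -1.41, and its close copy Apol9a differed by -1.44, -0.99 and -1.16; their probes cannot be assumed to tell the genes apart. Bst2 (tetherin), which holds budding virus at the cell surface, read 3.50 and 2.87, then 4.26 and 4.41, then 3.82 and 2.61, so that its 2-fold difference of -1.21 lay in the CD45+EpCAM- cells alone; its epithelial difference of 0.15 was -0.27 with normexp. Ifi44 was not well above background in the thymocytes, read -0.09 and 0.19 in the epithelial cells, and read -3.44 in the TNF knockout CD45+EpCAM- cells; there the double knockout array was near background, at least 3.99-fold under it, and normexp gave a difference of -0.71.

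Eif2ak2 (PKR), which shuts down translation on double-stranded RNA, differed by -0.69, -0.18 and -0.52. Rtp4, Xaf1, Trim30a, Parp14 and Lgals3bp all lay between -0.75 and -0.38 in the thymocytes and between -0.58 and -0.24 in the CD45+EpCAM- cells, with epithelial values between 0.06 and 0.43, of which those of Xaf1, Parp14 and Lgals3bp changed sign in at least 1 setting. Rsad2 (viperin) and its neighbour Cmpk2, which together make and use an antiviral nucleotide, differed by -0.20 and -0.05 in the thymocytes and by 0.02 and -0.15 in the CD45+EpCAM- cells. Ifi35 differed by -0.22, 0.01 (-0.34 with normexp) and -0.30.

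**Figure D3:**
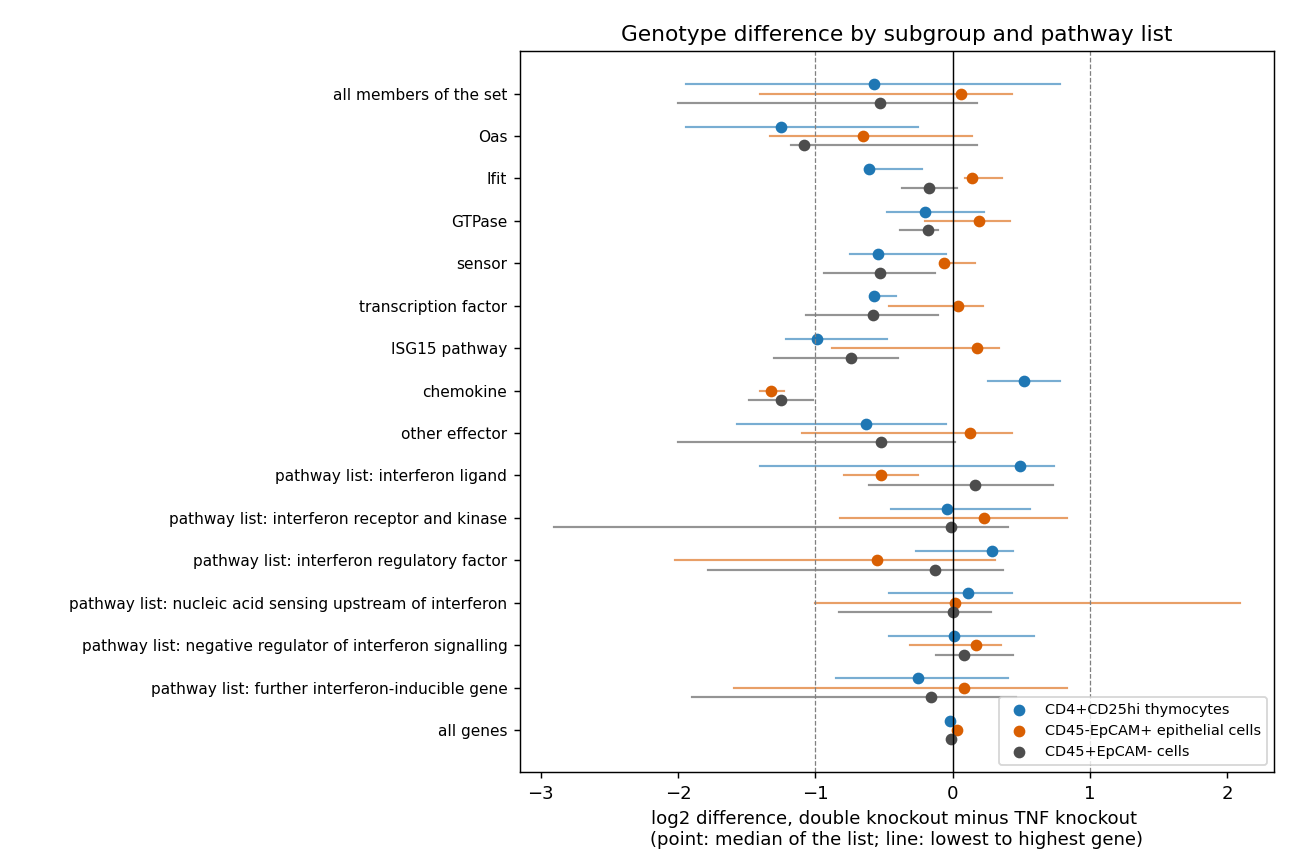
Median (point) and range (line) of the genotype difference for the whole set, its 8 subgroups and 6 further pathway lists in each population, with the median of all genes in the last row; a line covers the measured genes of a list, bounds included. The Oas family has the lowest median in the thymocytes, at -1.25, while the chemokines have medians of 0.52 in the thymocytes and -1.32 and -1.25 in the other populations.

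Set against each other, 12 of the 36 members with a difference in all 3 populations were lower in each: Oas1a, Oas2, Oas3, Oasl1, Ifih1, Dhx58, Irf7, Usp18, Cmpk2, Eif2ak2, Apol9a and Apol9b. The epithelial signs of Oas3, Ifih1 and Eif2ak2 changed in at least 1 setting. Another 20 were lower in the double knockout thymocytes and higher in the double knockout epithelial cells, a split that includes members whose epithelial sign changed with normexp. Neither the 12 nor the 20 was set against a share over all genes, so neither is read as particular to the set. Over 35 members, the differences in thymocytes and epithelial cells had a Pearson r of 0.07 (Spearman rho 0.04). Over 36 members, those of thymocytes and CD45+EpCAM- cells had r = 0.45 (rho 0.55), and over 35 those of epithelial and CD45+EpCAM- cells r = 0.68 (rho 0.56). These values describe genes that share the same arrays, and genes are not independent replicates.

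**Figure D4:**
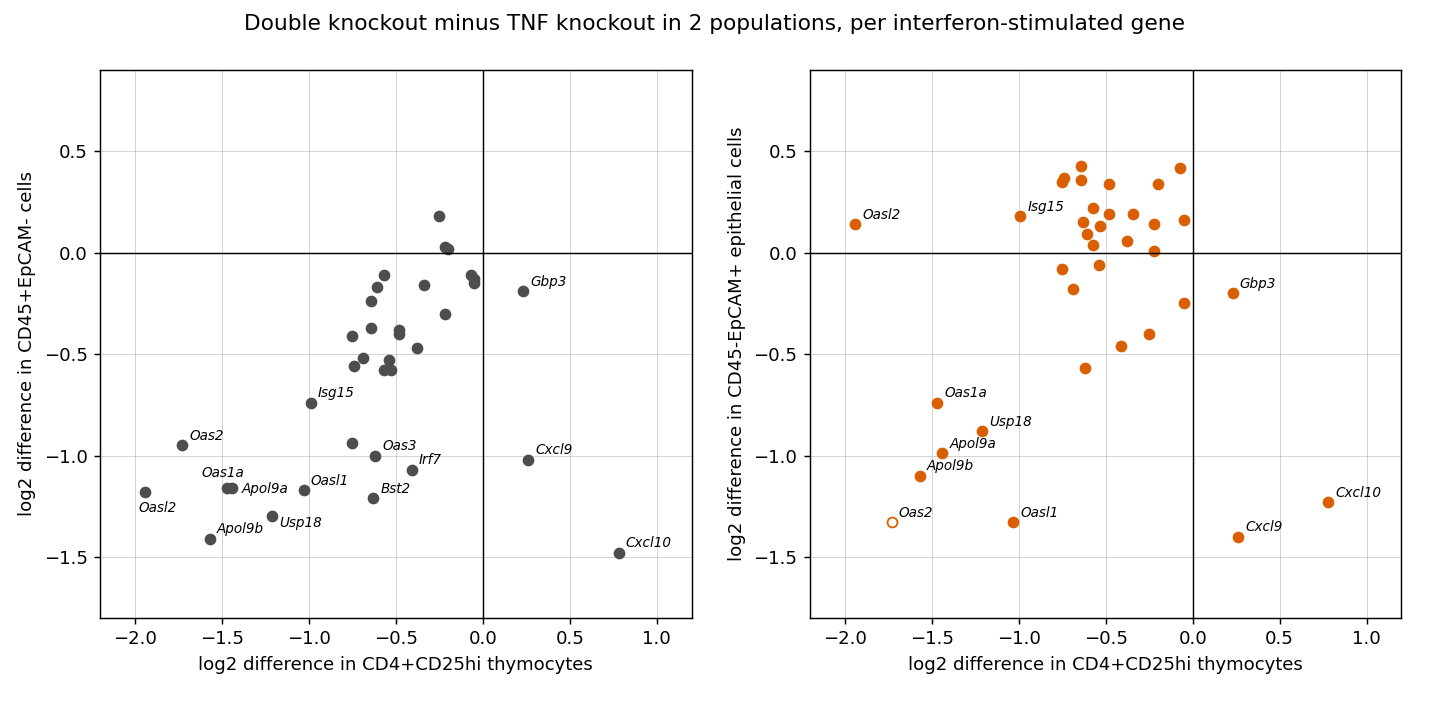
Genotype difference of each member in the CD45+EpCAM- cells (left) and in the epithelial cells (right) against that in the thymocytes, with 1 point per gene and an open circle for a bound. Usp18, Oas1a, Oas2, Oasl1 and the Apol9 genes lie at the lower left in both panels, Cxcl9 and Cxcl10 at the lower right, and Oasl2 and Isg15 lie above 0 in the right panel and below it in the left.

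The genotype effect shared by the populations was estimated with limma from all 6 arrays, with population as a block. After Benjamini-Hochberg adjustment over 13740 genes, none of the 37 members tested was called at an adjusted p of 0.05, nor was any gene (0% of 13740). At an unadjusted p under 0.05 there were 9 members (24.3%), all lower, against 873 of all genes (6.35%), and the smallest adjusted p of a member was 0.679. Oasl1 had the smallest unadjusted p, 0.000752 by limma, with a common difference of -1.18 ± 0.12 (SE, 3 pairs of arrays). The other 8 were Oas1a, Oas2, Oas3, Irf7, Usp18, Eif2ak2, Apol9a and Apol9b. Apol9b had a common difference of -1.36 ± 0.14 (SE) and Usp18 one of -1.13 ± 0.13 (SE). The fit had 2 residual degrees of freedom.

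Levels were also compared across the populations. Of the 37 members well above background in at least 1 population, 20 had their highest mean in the epithelial cells, 15 in the thymocytes and 2 (Oas2 and Ifit2) in the CD45+EpCAM- cells. Both arrays of the highest population lay above both arrays of the next for 15, 10 and 2 of these. The CD45+EpCAM- cells had the lowest mean of 25 members, with no overlap with the next population for 14. These orderings were not counted over all genes, so they describe the members and are not read as a trait of the set. With a threshold of adjusted p 0.05 plus a 2-fold change, limma called 18 of 37 members higher in epithelial than in CD45+EpCAM- cells and 3 lower, against 19.4% and 19.2% of all genes. Both counts depend on the CD45+EpCAM- arrays: they fell when either of these arrays was left out, and so did the counts over all genes. Between thymocytes and epithelial cells, 7 members were higher in the thymocytes and 9 lower (18.3% and 20.7% of genes). These counts fell when either thymocyte array was left out, as did the counts over all genes. Between thymocytes and CD45+EpCAM- cells, 10 were higher in the thymocytes and 1 lower (4.82% and 7.82%), but leaving out any of the 4 arrays of these populations left 0 calls, also over all genes.

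The epithelial cells carried the highest Cxcl10, Oas1a, Oasl2, Cxcl9 and Ifi44 levels. Cxcl10 had a mean of 4.34 there, against -0.79 in the thymocytes and -1.22 in the CD45+EpCAM- cells, differences of 5.13 and 5.55 (SE 0.65, limma adjusted p = 0.00784 and 0.00693). Oas1a was higher by 4.36 and 3.29 (SE 0.23, limma adjusted p = 0.00188 and 0.00336). Oasl2 was higher by 4.15 and 4.49 (SE 0.56, limma adjusted p = 0.00877 and 0.00772), and Cxcl9 by 3.93 and 3.77 (SE 0.47, limma adjusted p = 0.00685 and 0.00763). The size of the Cxcl9 differences depends on the probe. The second Cxcl9 probe read 2.48 and 0.77 in the epithelial cells and -2.47 and -5.47 in the CD45+EpCAM- cells, and was dim in the thymocytes. Ifi44 was at least 26.5-fold higher than in the thymocytes, taken against the faintest signals well above background on their arrays.

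The thymocytes carried the highest Apol9b, Apol9a, Oas1c and Trim30a. Apol9b had a mean of 3.19, against 0.38 in the epithelial and -0.08 in the CD45+EpCAM- cells, and was higher by 2.81 and 3.27 (SE 0.17, limma adjusted p = 0.00228 and 0.00921). Oas1c was higher by 2.33 and 1.92 (SE 0.20, limma adjusted p = 0.00377 and 0.0189). Trim30a, a restriction factor and regulator of NF-kB signalling, was 2.37 higher than in the epithelial cells (SE 0.24, limma adjusted p = 0.00497), while its difference of 0.87 from the CD45+EpCAM- cells was not called (limma adjusted p = 0.0892). Oas2 ran the other way: it was highest in the CD45+EpCAM- cells, by 1.92 over the thymocytes and 2.78 over the epithelial cells (SE 0.23, limma adjusted p = 0.0241 and 0.00423). Members of 1 family, with Oas1a highest in epithelium, Oas1c in thymocytes and Oas2 in CD45+EpCAM- cells, were thus called highest in different populations. The calls between thymocytes and CD45+EpCAM- cells, those of Oas1c, Oas2 and Apol9b included, were lost when an array of either population was left out.

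**Figure D5:**
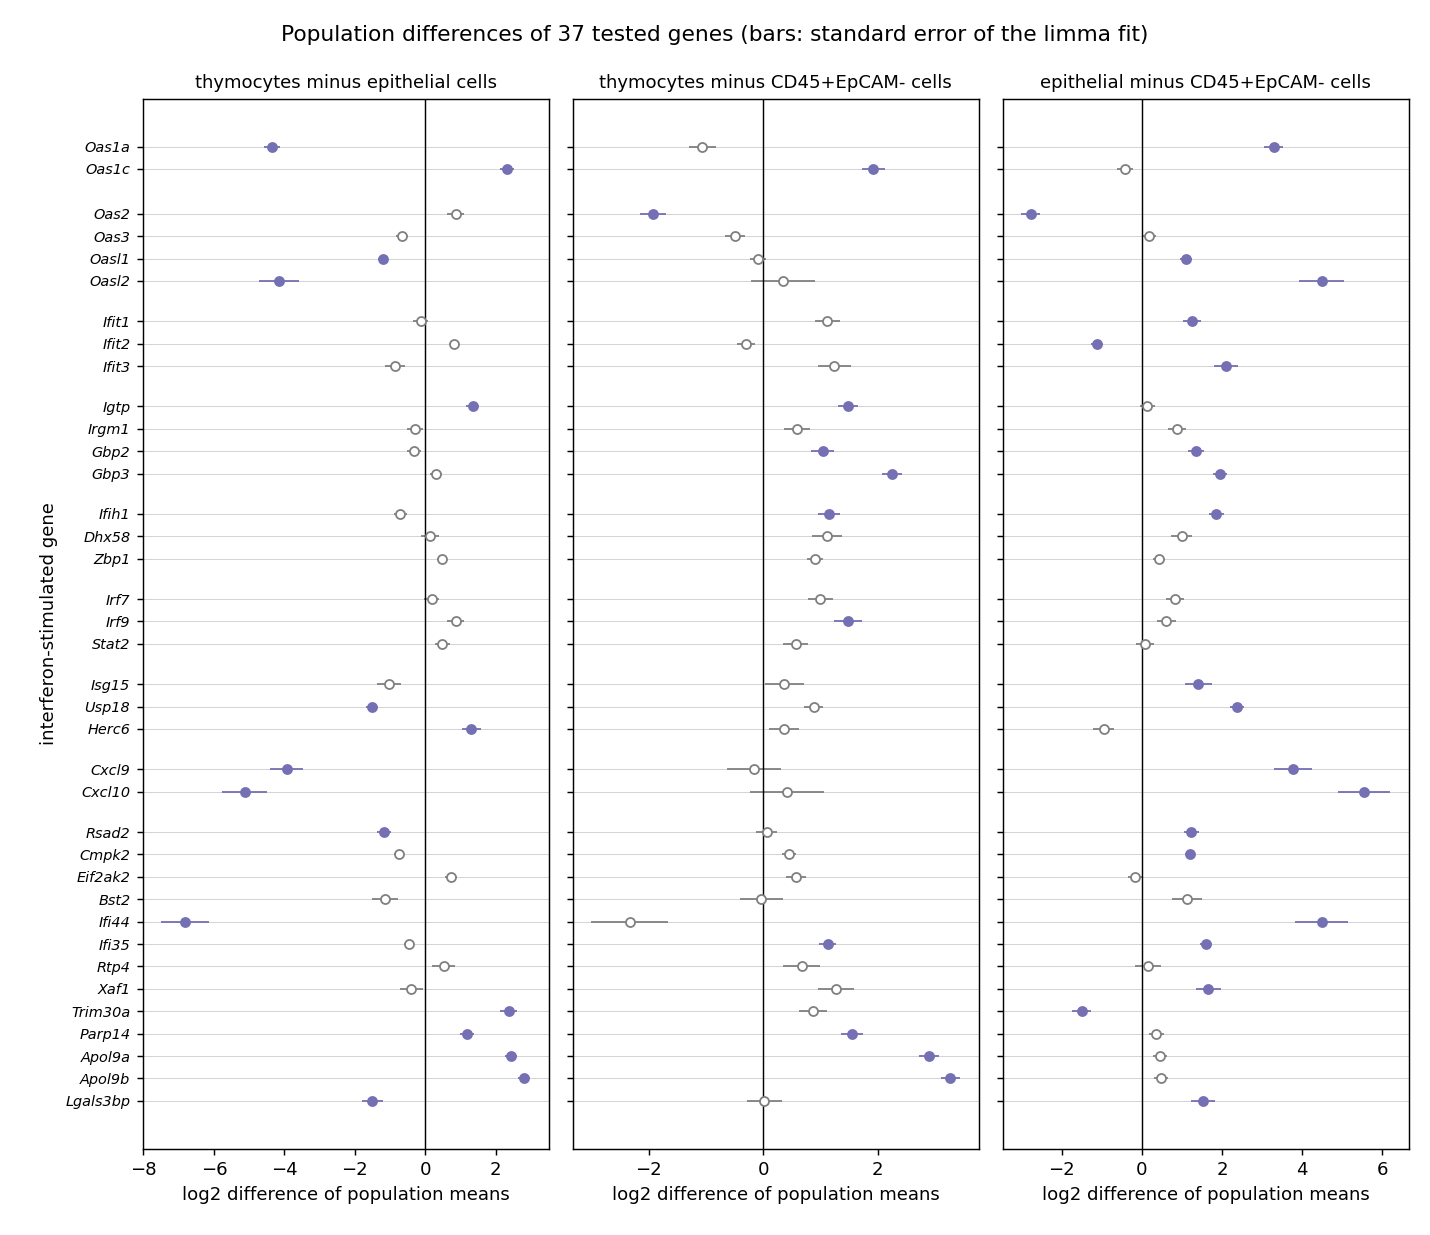
Difference of population means on the log2 scale for the 37 tested members, with the standard error of the limma fit; filled points passed an adjusted p of 0.05 and 2-fold, open points did not, and each panel has its own axis range. Cxcl10, Oas1a, Oasl2, Cxcl9 and Ifi44 lie far towards the epithelial cells, and the Apol9 genes towards the thymocytes.

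Other genes of the pathway were taken from 6 lists with 112 genes in all. Of 52 further interferon-inducible genes with a probe, none was at least 2-fold lower in the double knockout thymocytes (1.28% of all genes) and 41 were below 0 (52.2% of all genes), with a median of -0.25. In the CD45+EpCAM- cells 39 were below 0 (51.2% of all genes; median -0.16), and 3 were at least 2-fold lower (2.08% of all genes): Ly6a by -1.90, Ly6c1 by -1.37 and Ifi27l2a by -1.17. In the epithelial cells 20 of 49 were below 0 (47% of all genes; median 0.08, and -0.16 with normexp), and 3 were at least 2-fold lower, a smaller share than the 9.3% of all genes: Ifitm1, Ly6c1 and Gbp5, at -1.59, -1.16 and -1.07. The median of the 42-gene set was farther from 0 than that of this larger list in the thymocytes and the CD45+EpCAM- cells. Both lists were chosen with earlier results of these data known, so no conclusion is drawn from this contrast.

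Of 16 interferon ligand genes with a probe, 8 were dim on both thymocyte arrays. The other 8 had a median difference of 0.49 there (0.22 with normexp), with 6 above 0 and 2 below (52.2% of all genes were below 0). The Ifna probes among them were faint. Ifna1 read -3.97 and -3.24 and Ifna12 -3.39 and -3.76, not far above the faintest signals well above background on these arrays (-4.84 and -4.51). The Ifna2 difference was a bound. The direction of this list is therefore not read as a change in ligand expression. Ifnb1 was well above background on the TNF knockout epithelial array alone, at -2.89, a level under the faintest probes well above background on its partner array (-2.82), so that no fold could be given. Ifng, the type II ligand, read -1.99 and -3.39 in the thymocytes, a difference of -1.40, and differed by -0.50 in the CD45+EpCAM- cells. Among receptors, Ifnar1 and Ifnar2 of the type I receptor differed by 0.30 and 0.16 in the thymocytes and by 0.16 and -0.01 in the CD45+EpCAM- cells. Ifngr1 and Ifngr2, of the interferon-gamma receptor, differed by 0.83 and -0.82 in the epithelial cells. Ifnlr1, of the interferon-lambda receptor, read -1.76 and -4.67 in the CD45+EpCAM- cells and differed by 0.22 in the epithelial cells. Irf1, a factor induced by interferon-gamma, differed by -0.21, 0.09 and -0.07.

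Interferon regulatory factors and sensors outside the set differed by population. Irf8, which dendritic cells need, read 3.81 and 2.03 in the CD45+EpCAM- cells. Irf4 and Irf5 were lower by -2.02 and -1.12 in the double knockout epithelial cells. In those cells Tlr7, a receptor of single-stranded RNA, read -2.60 and -0.51, a difference of 2.09, and Sting1, which relays DNA sensing, differed by -1.0. In the thymocytes 3 of 7 factors and 5 of 11 sensing genes were below 0, with medians of 0.29 and 0.11. These counts are near the 52.2% of all genes below 0 there.

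Markers of other cells moved alongside these results. In the CD45+EpCAM- cells, where 12 members were 2-fold lower, 4 of 7 markers of plasmacytoid dendritic cells, known producers of interferon, were at least 2-fold lower: Cox6a2 by -3.09, Klk1 by -2.66, Smim5 by -1.31 and Tcf4 by -1.20. The other three, Siglech (-0.03), Pacsin1 (-0.05) and Ccr9 (-0.17), differed by less than the SD between probes. The summed linear signal of the 7 markers, relative to the 75th percentile, went from 164 to 151. Most of it came from Siglech (log2 levels 6.89 and 6.87), followed by Ccr9 (4.50 and 4.33) and Pacsin1 (3.55 and 3.50). Siglech and Pacsin1 were bright in every population, so that whether the Siglech probe reports that gene is not known here. Of 7 dendritic cell markers, 6 were lower and 4 at least 2-fold (summed signal 5.14 and 3.50), while macrophage and granulocyte markers were higher, with medians of 0.79 and 1.30. Bst2 is itself also a marker of plasmacytoid dendritic cells. In the epithelial cells, where the chemokines were lower, all 6 medullary markers were lower and 4 at least 2-fold, with a median of -1.85 (summed signal 24.6 and 9.6). In the same cells the 5 granulocyte markers had a median of -1.86 (summed signal 31.9 and 8.83), and 4 of them, S100a8, S100a9, Mpo and Camp, were past 2-fold in the lower direction. Cortical markers had a median of 0.75 (summed signal 910 and 1570), T-lineage markers one of 0.78 (summed signal 47.9 and 90.4), and Ptprc, the gene of CD45, one value of 1.18. In the thymocytes, 6 proliferation markers had a median of -0.65 (summed signal 14.1 and 9.63), while 3 of 6 regulatory T cell markers were lower, with a median of 0.03. The part of any of these in the results above was not tested.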

How the data were processed

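The deposited scanner output gives one-colour spot intensity, made by the authors with Feature Extraction 10.5.1.1 per the file headers; version 9.5 of Agilent Feature Extraction stands in the submitters' processing notes. The deposited value table holds log2 values, found here to equal the log2 processed signal minus the array's 75th percentile (100% of probes within 0.05, after an offset per array of at most 0.0054 in size); the medians of its columns, ordered as in the text, were -3.71, -3.61, -2.84, -2.72, -3.63 and -3.58, and no source used here states this scale.

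Levels are log2 of the processed signal, already background-corrected by the scanner software, minus the array's 75th percentile. Controls and outlier spots were dropped, and 39419 probes were used. Through transcript accessions and a gene table of GRCm38.p6, 27472 probes (69.7%) had 1 symbol, 35 several and 11912 none; the array design names another build, mm9, so array coordinates are not given. Mx1, Mx2, Oas1b and Ddx60 had no probe named here. Each gene took its brightest probe by the mean over 6 arrays.

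A difference between genotypes was taken where at least 1 array of the pair was well above background by the scanner software's test. On a dim array the gene's own value, or if higher the faintest probe well above background there, was used instead, which gives a bound ("at least"). The fit used limma 3.58.1 in R 4.3.3 (lmFit, eBayes) on the 13740 genes that were well above background on 3 or more arrays, with population and genotype as terms, 2 residual and 1.74 prior degrees of freedom, and was tested on simulated data. No cultures or animals were replicated: the 2 arrays of a population are its genotypes, and their small number limits the precision.

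The members and lists were chosen with earlier results of these data known. All 42 members may be named; of other pathway genes, those with the largest differences, those at least 2-fold apart in short lists, and the main ligands, receptors and Irf1. Alternatives were normexp (offset 50), quantile normalization, median centring, the mean over probes, stricter and no filters on dim probes, the deposited table, limma's trend and leaving out each array. Normexp used the median signal, as the files hold no column of mean signal, and this choice, with a fit without the epithelial pair, was made after seeing the data. Promoters are RefSeq windows; Oas1b, Oas2, Mx1, Mx2, Dhx58, Zbp1, Usp18, Rtp4 and Parp14 had none at hand.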

Additional observations from a re-analysis of the deposited data

Results flagged for a closer look

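For 6 members, the genotype difference had opposite signs in 2 populations, both beyond the SD between probes and at least 2-fold apart. With 1 array per group the difference between populations was not tested, and these limits were set after the values had been seen. Cxcl10 was 0.78 in the thymocytes, -1.23 in the epithelial cells and -1.48 in the CD45+EpCAM- cells, and Cxcl9 was 0.26, -1.40 and -1.02; their opposite signs held in all 8 settings. In the thymocytes the Cxcl9 probe was faint (-3.72 and -3.46), and its difference of 0.26 was close to the SD between probes (0.22). A second Cxcl9 probe was dim there and gave no difference. Rtp4 was -0.74 in the thymocytes and 0.37 in the epithelial cells, with opposite signs in all 8 settings, although the epithelial value was 0.05 with normexp. Ifit3 (-0.64 and 0.36), Xaf1 (-0.75 and 0.35) and Lgals3bp (-0.64 and 0.43) kept opposite signs in 7 of 8 settings, and their epithelial values were -0.09, -0.01 and -0.08 with normexp.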

How the results depend on the processing

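Counts of members past 2-fold and medians of the whole set within a population stayed within 1.5 times or within the SD between probes under the 7 alternatives, with 1 exception: without a filter on dim probes, 1 member was at least 2-fold higher in the double knockout epithelial cells, against 0. Medians of 5 subgroups moved beyond that SD. With normexp, those of the epithelial cells went from -0.65 to -0.20 (Oas), 0.19 to -0.22 (GTPases), 0.04 to -0.29 (transcription factors) and 0.18 to -0.30 (ISG15 pathway), that of Oas in the thymocytes from -1.25 to -0.93, and that of the chemokines in the CD45+EpCAM- cells from -1.25 to -0.88, or to -1.75 with the mean over probes. No member past 2-fold reversed. The double knockout epithelial array was the dimmest, and its differences depended most on the background correction. In limma's common fit 0 members were called under every alternative, also without the epithelial pair. Between thymocytes and CD45+EpCAM- cells, no filter gave 3 members higher and 0 lower, against 10 and 1, and median centring and limma's trend gave 2 lower. Leaving out each array in turn gave 0 to 14 higher and 0 to 2 lower in that contrast, 4 to 9 higher and 5 to 12 lower between thymocytes and epithelial cells, and 5 to 20 higher and 1 to 4 lower between epithelial and CD45+EpCAM- cells; in each such fit a lone array is assumed to vary like the other groups. The causes of these changes were not tested. Every fit pairs the arrays of a population through the population block, which is also the slide; the labels give no replicate numbers for a further block. Dim members on the epithelial array have bounds only.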
